A study of Mus musculus with 6 samples.

Results

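Chemokines and their receptors were compared between bone marrow-derived macrophages of the genotypes Ctrl and KAT7KO, as RNA levels in 3 libraries per genotype. The members were all genes of the table whose symbol starts with Ccl, Cxcl, Cx3cl, Xcl, Ccr, Cxcr, Cx3cr, Xcr or Ackr and a digit, which gave 49 of 18039 genes, 29 ligands and 20 receptors. At least 10 counts over the 6 libraries were reached by 41 of the 49 (25 ligands and 16 receptors). Both genotypes were mouse marrow cultures differentiated over 7 days in 20 ng/mL M-CSF, which drives macrophage differentiation, and no inflammatory stimulus is named. KAT7 is a histone acetyltransferase of the MYST family. The labels call the libraries biological replicates without saying whether they came from separate animals, so the p-values here rest on variation among these libraries that may be technical. The sources used here do not give strain, sex, age, the deleted part of the gene or the cells in which it was deleted.

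Chemokines are small secreted proteins that draw leukocytes along a gradient. They bind receptors with 7 membrane-spanning helices that signal through inhibitory G proteins, and atypical receptors (Ackr) bind ligands without that signal. Macrophages make many of the inflammatory ligands, through which they recruit monocytes, neutrophils and lymphocytes, and they carry receptors of their own. In the mouse several ligands commonly share a receptor, and many of the ligand genes lie side by side in the genome.

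Each library held 19906726 to 20660090 counts over genes. Levels are given as CPM, counts scaled to library size with TMM factors, and 3 counts correspond to 0.145 to 0.152 CPM. Kat7 itself stood at 73.2, 70.3 and 69.0 CPM in Ctrl and at 41.4, 42.2 and 38.2 CPM in KAT7KO, 57.3% of Ctrl (95% interval 52.2% to 62.9%). The macrophage marker Cd68 had means of 2621 and 2802 CPM and Adgre1 of 594 and 640 CPM in Ctrl and KAT7KO, and neither passed the test. Of the 8 macrophage markers listed, all tested, Lyz2 (log2 fold change -0.68) and Itgam (-0.42) were lower, 0 were higher and 6 did not pass. That is 25% past the threshold, near the 23.9% of all genes tested. The summed level of the 8 was 27276 to 36968 CPM in Ctrl and 22016 to 22824 CPM in KAT7KO. Differences were tested with edgeR's quasi-likelihood test over 12483 genes, and a gene passed at a Benjamini-Hochberg adjusted p under 0.05.

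KAT7KO macrophages carried less RNA for the receptor Ccr1 and for 8 ligands, among them the neutrophil attractant Cxcl5, the monocyte attractant Ccl2 and the T cell and monocyte attractant Ccl5. They carried more RNA for the receptor Cxcr4 and the membrane-anchored ligand Cxcl16, and, at low levels, for Cxcl13, Cxcr5 and Ccl24. Of the 49 members, 30 had enough counts to be tested, and 15 of these 30 passed (50%), 10 lower and 5 higher in KAT7KO. Of all genes tested, 23.9% passed, 13.2% lower and 10.7% higher. Among the 21 ligands tested 8 were lower and 3 higher, and among the 9 receptors 2 were lower and 2 higher. The median log2 fold change was -0.27 over the tested ligands and -0.20 over the tested receptors, beside 0.0023 over all genes tested. Whether ligands and receptors differ was not tested. The values of the genotypes did not overlap for 18 of the 30, with KAT7KO below in 13 and above in 5, where 41% of all genes tested had no overlap. In bulk RNA, fewer cells of a type and less RNA per cell cannot be told apart.

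**Figure D1:**
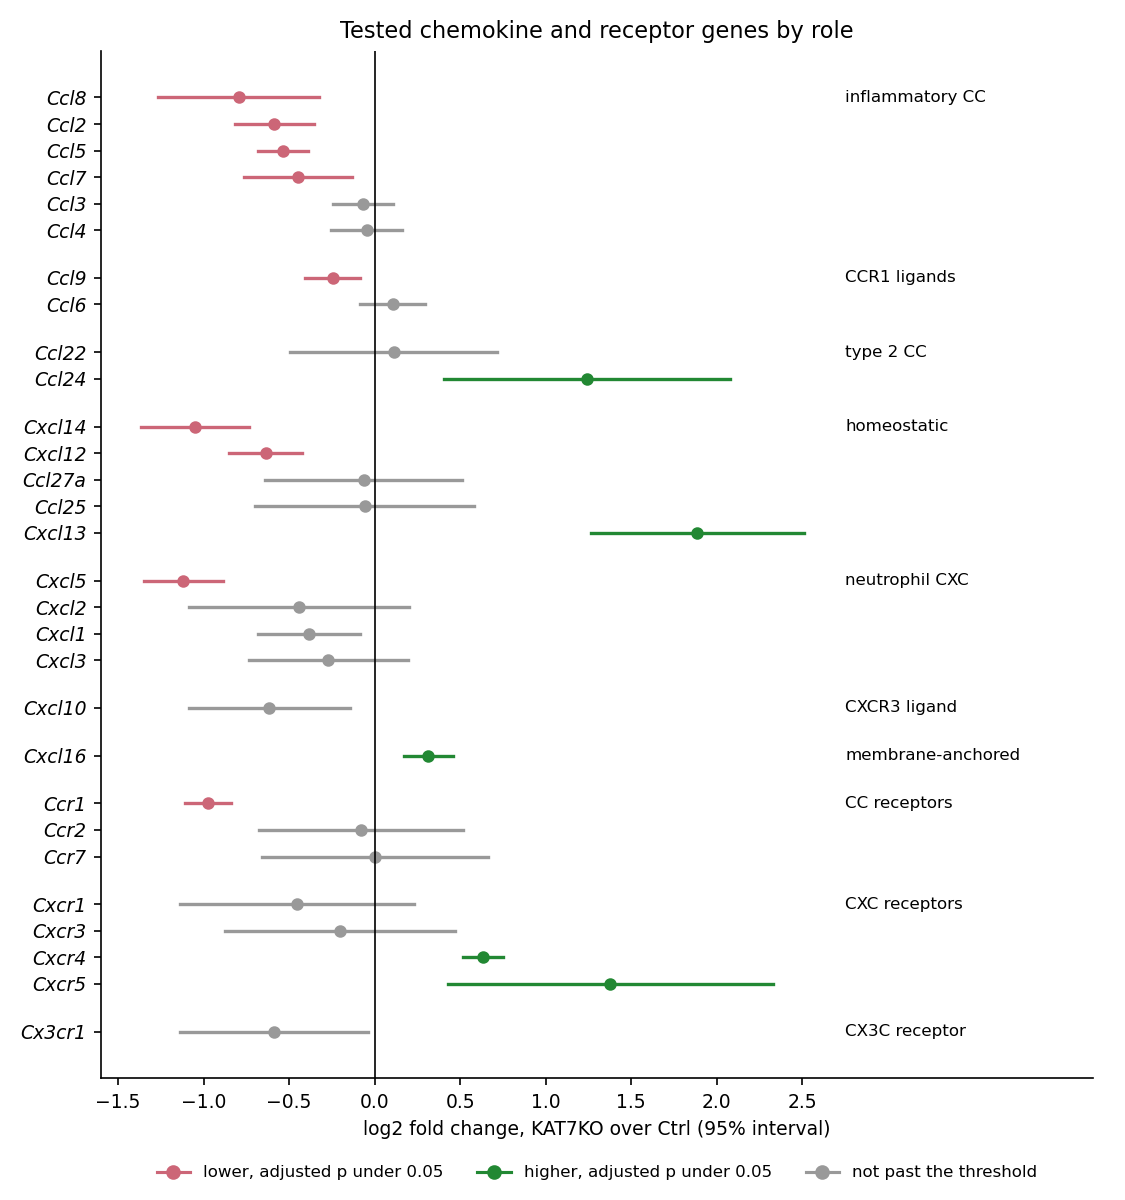
Log2 fold change of the tested members reported by name, KAT7KO over Ctrl, on the x axis with its 95% interval (bar), 1 row per gene, grouped by role. Red and green mark lower and higher genes past an adjusted p of 0.05, and grey the 15 not past it; all 6 tested inflammatory CC ligands lie left of 0.

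The calls were not equally firm. Over 14 alternative settings (other scalings, filters and tools, and each library left out), 9 of the 15 kept their call wherever they were tested, among them Ccr1, Cxcr4, Cxcl5, Cxcl14, Cxcl12, Ccl2, Ccl5 and Cxcl13. The other 6 (Ccl7, Ccl8, Ccl9, Cxcl16, Ccl24 and Cxcr5) lost it somewhere. Cxcl13, Ccl24 and Cxcr5 were over the filter on low counts in all 3 KAT7KO libraries but in 2, 1 and 0 Ctrl libraries. The filter asks for any 3 libraries. The Ctrl means of Ccl24 (0.470 CPM) and Cxcr5 (0.292 CPM) were under its cut of about 0.496 CPM. A member at such a level would enter the test mainly by being higher in KAT7KO. The Ctrl mean of Cxcl13 (0.763 CPM) was over the cut, so a member at that level could also enter without a difference. The remaining 27 tested members were over the filter in all 6 libraries.

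Promoters are shown for the 5 of those 9 genes that the RefSeq promoter table holds, because these are the members whose difference the results turn on. Each line gives the 250 bases before the RefSeq start, 5′ to 3′ on the gene's strand, with matches to the searched motifs in capitals. The sequences were matched by symbol and come from build GRCm38.p6, not the build GRCm39 named in the submitters' processing notes.
Ccr1: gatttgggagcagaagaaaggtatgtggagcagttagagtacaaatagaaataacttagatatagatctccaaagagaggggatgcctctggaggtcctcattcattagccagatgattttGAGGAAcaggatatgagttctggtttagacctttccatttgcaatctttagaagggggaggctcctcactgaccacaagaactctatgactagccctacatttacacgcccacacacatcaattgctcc
Cxcr4: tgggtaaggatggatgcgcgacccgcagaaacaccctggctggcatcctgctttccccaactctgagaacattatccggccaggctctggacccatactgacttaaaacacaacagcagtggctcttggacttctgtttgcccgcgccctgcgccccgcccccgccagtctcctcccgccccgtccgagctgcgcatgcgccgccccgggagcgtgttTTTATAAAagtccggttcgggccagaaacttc
Cxcl12: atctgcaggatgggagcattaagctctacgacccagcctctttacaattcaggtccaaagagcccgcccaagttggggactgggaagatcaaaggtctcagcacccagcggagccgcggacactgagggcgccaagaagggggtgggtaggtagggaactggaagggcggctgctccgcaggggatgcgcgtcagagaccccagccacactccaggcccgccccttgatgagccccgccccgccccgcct
Cxcl14: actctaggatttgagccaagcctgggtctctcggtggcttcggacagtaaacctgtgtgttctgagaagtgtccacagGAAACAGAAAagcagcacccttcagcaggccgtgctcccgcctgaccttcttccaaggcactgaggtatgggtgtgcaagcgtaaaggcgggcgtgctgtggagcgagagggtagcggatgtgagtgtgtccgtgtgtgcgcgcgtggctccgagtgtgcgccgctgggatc
Cxcl13: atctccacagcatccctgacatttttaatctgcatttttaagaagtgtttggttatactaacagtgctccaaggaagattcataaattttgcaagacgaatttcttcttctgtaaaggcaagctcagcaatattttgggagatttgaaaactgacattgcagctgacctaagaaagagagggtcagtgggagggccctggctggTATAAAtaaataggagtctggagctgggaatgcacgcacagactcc

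The Ccr1 window is chr9:123968693-123968942 on the minus strand, that of Cxcr4 chr1:128592300-128592549 on the minus strand and that of Cxcl12 chr6:117168285-117168534 on the plus strand. Cxcl14 lies at chr13:56296552-56296801 on the minus strand and Cxcl13 at chr5:95956689-95956938 on the plus strand. The motifs searched on both strands were GGG and TTTCC with 2 free bases between them for NF-kB, GAAA and GAAA with 2 free bases between them for the interferon-stimulated response element (ISRE), TGANTCA for AP-1, GAGGAA for the PU box and TATAAA for the TATA box. They occur in 1.41%, 2.98%, 6.75%, 23.3% and 12.4% of all 32851 promoter windows of this length, in that order. Ccr1 held a PU box match 129 bases before the start, and Cxcl14 an ISRE match 172 bases before it. Cxcr4 and Cxcl13 held TATA box matches starting 30 and 46 bases before the start, the one in Cxcr4 overlapping a match on the other strand. Cxcl12 held none of the 5. The windows differed in base makeup, with 1 CpG in Ccr1 and 2 in Cxcl13, against 14 in Cxcl12, 16 in Cxcl14 and 19 in Cxcr4, where the median over all windows was 6.

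**Figure D2:**
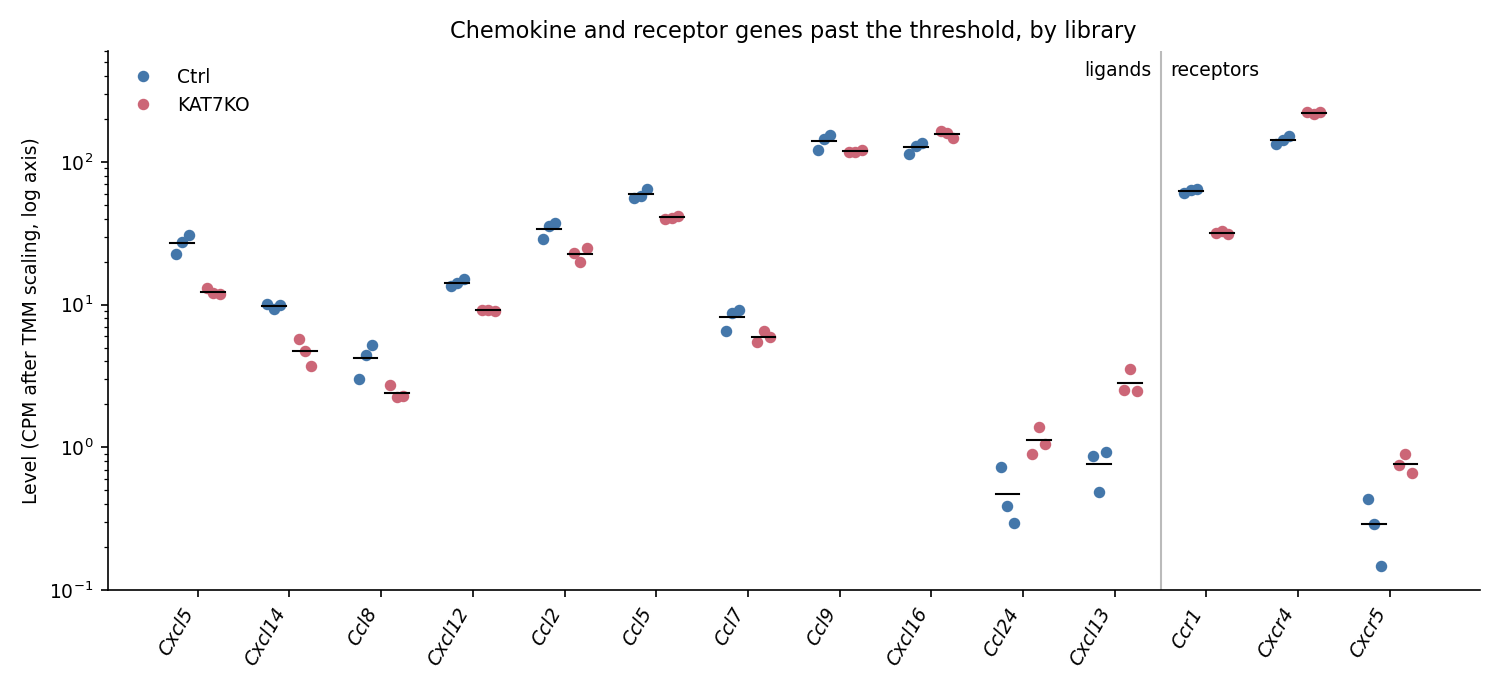
Level of the members past the threshold that are reported by name, in each library, as CPM after TMM scaling on a log axis. Each point is 1 library, blue for Ctrl and red for KAT7KO, and each bar the mean of 3; no gene shown has overlapping genotypes.

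The receptor genes Ccr1 and Cxcr4 changed in opposite directions. Ccr1 (ENSMUSG00000025804), a receptor for several inflammatory CC ligands, stood at 60.9, 63.3 and 64.6 CPM in Ctrl and at 32.0, 32.8 and 31.2 CPM in KAT7KO. Every KAT7KO library was far below every Ctrl library, and the spread within a genotype was small. The log2 fold change was -0.98 (SE 0.06, edgeR adjusted p = 1.35e-07), or 50.8% of Ctrl (95% interval 46.4% to 55.8%).

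Cxcr4 (ENSMUSG00000045382), the receptor for Cxcl12 that holds blood cell precursors and leukocytes in the marrow, was the most abundant receptor. Its levels were 134, 142 and 152 CPM in Ctrl and 224, 216 and 225 CPM in KAT7KO. All 3 KAT7KO values were above all Ctrl values, with a log2 fold change of 0.63 (SE 0.05, edgeR adjusted p = 2.56e-06), which is 1.55-fold. On the authors' FPKM scale, which also divides by gene length and so allows levels to be set between genes, Cxcr4 stood at 79.4 ± 3.64 in Ctrl and 122 ± 2.77 in KAT7KO (SD, n = 3). Ccr1 stood at 22.3 ± 0.184 and 11.2 ± 0.263 FPKM. Cxcr4 made up 70.7% to 72.6% of the summed receptor FPKM in the Ctrl libraries and 86.8% to 87.5% in the KAT7KO libraries.

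Receptors present at low levels gave wide intervals. Ccr2, the Ccl2 receptor that marks inflammatory monocytes, stood near 1.2 CPM in most libraries, between 1.16 and 1.22 CPM in Ctrl and between 0.945 and 1.25 CPM in KAT7KO. The genotypes overlapped, and the 95% interval of its log2 fold change ran from -0.68 to 0.51. Cx3cr1, the receptor for the membrane-anchored Cx3cl1, was lower in each KAT7KO library (1.04 to 1.304 CPM, against 1.61 to 1.86 CPM in Ctrl) and did not pass (log2 fold change -0.59, edgeR adjusted p = 0.112). Ccr7, the lymph node homing receptor of activated dendritic cells, and Cxcr1 and Cxcr3 had intervals that spanned 0, with log2 fold changes of 0.0027, -0.46 and -0.20. Cxcr2, the main neutrophil receptor for Cxcl1, Cxcl2 and Cxcl5, had too few counts for the filter. It had 16, 11 and 7 counts in Ctrl and 0, 3 and 2 in KAT7KO, and its adjusted p in the authors' deposited table was 0.0315. Cxcr2 passed as lower with no filter on low counts, without Ctrl replicate 3 and without KAT7KO replicate 2. The 3 atypical receptors in the table, Ackr1, Ackr3 and Ackr4, had 13, 18 and 9 counts over all 6 libraries and were not tested.

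Cxcr5, the B cell follicle receptor for Cxcl13, had 9, 6 and 3 counts in Ctrl and 15, 18 and 13 in KAT7KO. The highest Ctrl value stayed under the lowest KAT7KO value, and the log2 fold change was 1.38 (SE 0.44, edgeR adjusted p = 0.0367). Its ligand gene Cxcl13 stood at 0.870, 0.489 and 0.930 CPM in Ctrl and at 2.51, 3.53 and 2.48 CPM in KAT7KO, with no overlap. The log2 fold change of Cxcl13 was 1.89 (SE 0.29, edgeR adjusted p = 0.000378), which is 3.70-fold (95% interval 2.41 to 5.69). The B cell markers moved with both genes: all 6 listed were in the table, none was at 0 counts, and their summed level was 4.11 to 5.42 CPM in Ctrl and 8.06 to 9.08 CPM in KAT7KO. Of the 4 that could be tested, Ms4a1 (log2 fold change 1.70) and Bank1 (0.97) were higher (50%) and 0 lower. Of all genes tested, 10.7% were higher. Ms4a1 had 12, 9 and 5 counts in Ctrl and 24, 23 and 36 in KAT7KO. Like Cxcr5 and Cxcl13, Ms4a1 and Cd79a were not over the filter on low counts in all Ctrl libraries. The Ctrl mean of Ms4a1 (0.421 CPM) was under the cut of about 0.496 CPM. A marker at that level would enter the test mainly by being higher in KAT7KO. The Ctrl mean of Cd79a (0.602 CPM) was over the cut. The part of these cells in the result was not tested. Cxcr5 lost its call when any library but Ctrl replicate 1 was left out (adjusted p = 0.0726 to 0.137), with DESeq2 (0.0769) and with no filter (0.0604).

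Inflammatory CC ligands were mostly lower in KAT7KO. Of 7 such members, 6 were tested, 4 fell (66.7%), 0 rose and 2 did not pass, where 13.2% of all genes tested were lower. Ccl5 (ENSMUSG00000035042), also called RANTES, which attracts T cells and monocytes, stood at 56.2, 57.3 and 64.7 CPM in Ctrl and at 40.1, 40.7 and 42.0 CPM in KAT7KO. The KAT7KO libraries lay close together and below all Ctrl libraries, with a log2 fold change of -0.54 (SE 0.07, edgeR adjusted p = 8.45e-05). Ccl2 (ENSMUSG00000035385), the main attractant of CCR2-bearing monocytes, stood at 28.7, 35.7 and 37.5 CPM in Ctrl and at 23.1, 19.9 and 24.8 CPM in KAT7KO. Here the nearest values of the genotypes were less far apart, and the log2 fold change was -0.59 (SE 0.11, edgeR adjusted p = 0.00134).

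The relatives of Ccl2 gave smaller counts and weaker calls. Ccl7, a further CCR2 ligand, stood at 6.57, 8.79 and 9.16 CPM in Ctrl and at 5.47, 6.51 and 5.96 CPM in KAT7KO (log2 fold change -0.45, SE 0.15, edgeR adjusted p = 0.0398). Ccl8 stood at 3.00, 4.45 and 5.19 CPM and at 2.76, 2.24 and 2.27 CPM (log2 fold change -0.79, SE 0.22, edgeR adjusted p = 0.0177). In both, Ctrl replicate 1 lay just above the KAT7KO values. Ccl7 lost its call when any library but Ctrl replicate 1 was left out (adjusted p = 0.0657 to 0.143) and with limma-voom (0.0557). Ccl8 lost it without Ctrl replicate 2 (0.0586), Ctrl replicate 3 (0.0602), KAT7KO replicate 2 (0.0702) or KAT7KO replicate 3 (0.0742). Ccl12, the remaining CCR2 ligand of the list, had 1, 3 and 11 counts in Ctrl and 1, 14 and 5 in KAT7KO and was not tested.

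Ccl3 and Ccl4, the MIP-1 ligands, showed no detectable difference. Ccl3 stood at 27.0, 28.6 and 28.2 CPM in Ctrl and at 28.6, 24.0 and 27.2 CPM in KAT7KO (log2 fold change -0.07, 95% interval -0.25 to 0.11, edgeR adjusted p = 0.579). Ccl4 stood at 21.4, 22.2 and 26.3 CPM and at 21.3, 21.5 and 24.8 CPM (-0.05, 95% interval -0.26 to 0.16, edgeR adjusted p = 0.757). The genotypes overlapped in both. Without Ctrl replicate 3 the sign of Ccl4 turned (log2 fold change 0.050).

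Ccl6, a mouse CC ligand that resting macrophages make and that acts through CCR1, was by far the most abundant chemokine transcript. It stood at 1028 ± 129 FPKM in Ctrl and 1094 ± 14.9 FPKM in KAT7KO (SD, n = 3), where the next of the 29 ligands in Ctrl, Ccl5, stood at 62.1 ± 3.88 FPKM and the next in KAT7KO, Cxcl16, at 51.5 ± 3.10 FPKM. Its values were 1540, 1913 and 2061 CPM in Ctrl and 1954, 2007 and 1974 CPM in KAT7KO. The Ctrl values enclosed the KAT7KO values, and the log2 fold change of 0.11 (SE 0.09, edgeR adjusted p = 0.405) rests on Ctrl replicate 1. Leaving out that library gave -0.0084 (adjusted p = 0.870), and leaving out Ctrl replicate 3 gave 0.20, past the threshold (adjusted p = 0.0460). Ccl9, its neighbour and a further CCR1 ligand, stood at 121, 145 and 155 CPM in Ctrl and at 117, 118 and 121 CPM in KAT7KO. Ctrl replicate 1 and KAT7KO replicate 3 almost met, and the log2 fold change was -0.25 (SE 0.08, edgeR adjusted p = 0.0308). The call on Ccl9 held without Ctrl replicate 1 and was lost without any other library (adjusted p = 0.0781 to 0.108).

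**Figure D3:**
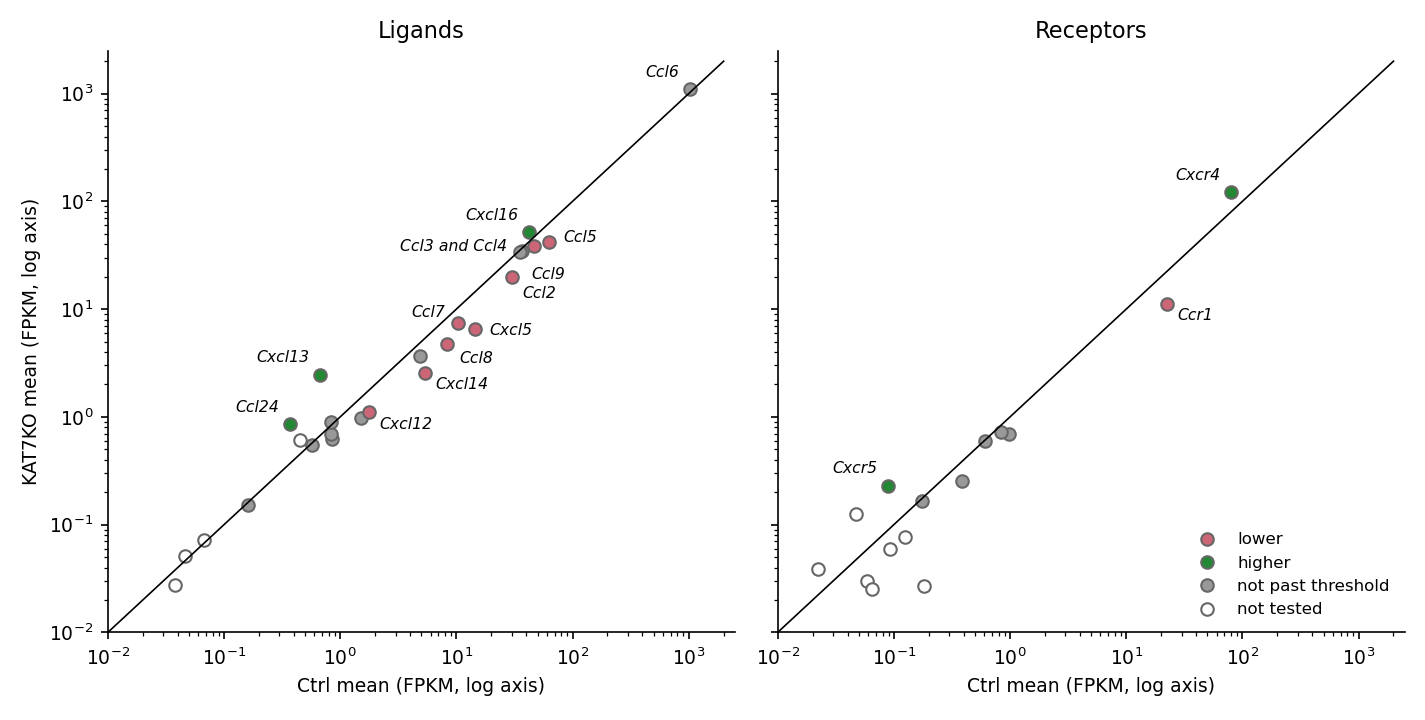
Mean level of members with at least 10 counts in Ctrl (x axis) and KAT7KO (y axis), in the authors' FPKM on log axes, ligands left and receptors right, with the line of equality. Colours mark the call and open points were not tested; Ccl6 and Cxcr4 are the highest of their panels, on and above the line.

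Neutrophil-attracting CXC ligands gave 1 lower member of 4 tested (25%), where 13.2% of all genes tested were lower. Cxcl5 (ENSMUSG00000029371), which acts through CXCR2, stood at 22.6, 27.4 and 30.5 CPM in Ctrl and at 12.99, 12.1 and 11.9 CPM in KAT7KO. The lowest Ctrl library was well above the highest KAT7KO library. The log2 fold change was -1.12 (SE 0.11, edgeR adjusted p = 7.38e-06), or 46.1% of Ctrl (95% interval 39.2% to 54.1%). Cxcl1, Cxcl2 and Cxcl3, the other CXCR2 ligands tested, had log2 fold changes of -0.38, -0.44 and -0.27 and did not pass. Cxcl1 came nearest, at 8.07, 8.94 and 10.3 CPM in Ctrl and 6.02, 8.01 and 6.92 CPM in KAT7KO (edgeR adjusted p = 0.0591). It passed without Ctrl replicate 1 and with no filter on low counts. Cxcl10, an interferon-inducible ligand of CXCR3, was also lower in every KAT7KO library (1.72 to 2.66 CPM, against 3.03 to 4.16 CPM in Ctrl) and missed the threshold (log2 fold change -0.62, edgeR adjusted p = 0.0566). Cxcl10 did pass under the replicate block, with no filter and without Ctrl replicate 3.

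Homeostatic ligands, which place cells in tissues in the absence of inflammation, went both ways. Of 5 tested, 2 were lower (40%) and 1 higher (20%), beside 13.2% lower and 10.7% higher over all genes tested. Cxcl14 (ENSMUSG00000021508), an attractant of monocytes and dendritic cell precursors, stood at 10.1, 9.33 and 9.89 CPM in Ctrl and at 5.72, 4.72 and 3.74 CPM in KAT7KO (log2 fold change -1.05, SE 0.15, edgeR adjusted p = 0.000184). Cxcl12 (ENSMUSG00000061353), the marrow retention signal and ligand of CXCR4, stood at 13.4, 14.2 and 15.2 CPM and at 9.23, 9.20 and 9.10 CPM (-0.64, SE 0.10, edgeR adjusted p = 0.000414). Both were lower in all 3 KAT7KO libraries, so within 1 ligand and receptor pair Cxcl12 was lower while Cxcr4 was higher. Stromal cells are the best known source of Cxcl12 in marrow. Of 6 stromal markers listed, 5 were in the table, none at 0 counts, and their summed level was 754 to 973 CPM in Ctrl and 694 to 710 CPM in KAT7KO. All 5 were tested, and Col1a1 (log2 fold change -0.44) and Dcn (-0.35) were lower (40%) and 0 were higher. Of all genes tested, 13.2% were lower. Col1a1 stood at 369, 288 and 260 CPM in Ctrl and at 227, 221 and 230 CPM in KAT7KO, so its Ctrl level was highest in replicate 1. Col1a2 (-0.19) and Pdgfrb, which went the other way (0.34), did not pass. Col3a1 stood at 69.9 and 70.01 CPM in Ctrl and KAT7KO. The part of these cells in the result was not tested. Ccl25 and Ccl27a, at about 1 CPM, had log2 fold changes of -0.06 (95% interval -0.70 to 0.58) and -0.07 (-0.64 to 0.51). Ccl27a has near-identical copies that may share its reads, which makes its value uncertain.

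Cxcl16 (ENSMUSG00000018920) is a membrane-anchored ligand of CXCR6 that also serves as a scavenger receptor for oxidized lipoprotein. It stood at 114, 130 and 135 CPM in Ctrl and at 165, 159 and 146 CPM in KAT7KO. The genotypes did not overlap, and the log2 fold change was 0.31 (SE 0.07, edgeR adjusted p = 0.00405), which is 1.24-fold (95% interval 1.12 to 1.37). A change beyond 1.2-fold was not shown (glmTreat adjusted p = 0.485). The receptor gene Cxcr6 had 24 counts over the 6 libraries and was not tested. Ccl24, an eosinophil attractant linked to alternative activation, stood at 0.725, 0.391 and 0.294 CPM in Ctrl and at 0.903, 1.39 and 1.06 CPM in KAT7KO, which is 1.24 on the log2 scale (SE 0.39, edgeR adjusted p = 0.0332). These are 6 to 28 counts a library, and the call was lost without any library but Ctrl replicate 1 (adjusted p = 0.0534 to 0.148) and with DESeq2 (0.0517). Ccl22, which attracts regulatory T cells, did not pass (log2 fold change 0.11, 95% interval -0.50 to 0.72).

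Summed over all ligands, the level did not separate the genotypes. It was 1986, 2420 and 2603 CPM in Ctrl and 2407, 2450 and 2414 CPM in KAT7KO. Without Ccl6 the sums were 447, 506 and 542 CPM and 452, 443 and 440 CPM, which still overlapped. Summed over all receptors, every KAT7KO library was above every Ctrl library. That sum includes Cxcr4, the most abundant receptor, with means of 143 CPM in Ctrl and 221 CPM in KAT7KO. It therefore does not describe the other receptors. Of the 9 receptors tested, 6 had negative and 3 positive log2 fold changes. Ccl6 made up 75.9% to 77.8% of the summed ligand FPKM in Ctrl libraries and 80.8% to 81.6% in KAT7KO libraries. Ctrl replicate 1 held the lowest Ctrl value for 14 of the 21 tested ligands and Ctrl replicate 3 the highest for 13. In KAT7KO the lowest values were spread over replicates 1, 2 and 3 as 8, 5 and 8 ligands. Leaving out Ctrl replicate 1 moved Ccl2 from -0.59 to -0.70, Ccl5 from -0.54 to -0.58 and Cxcl5 from -1.12 to -1.23 on the log2 scale.

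**Figure D4:**
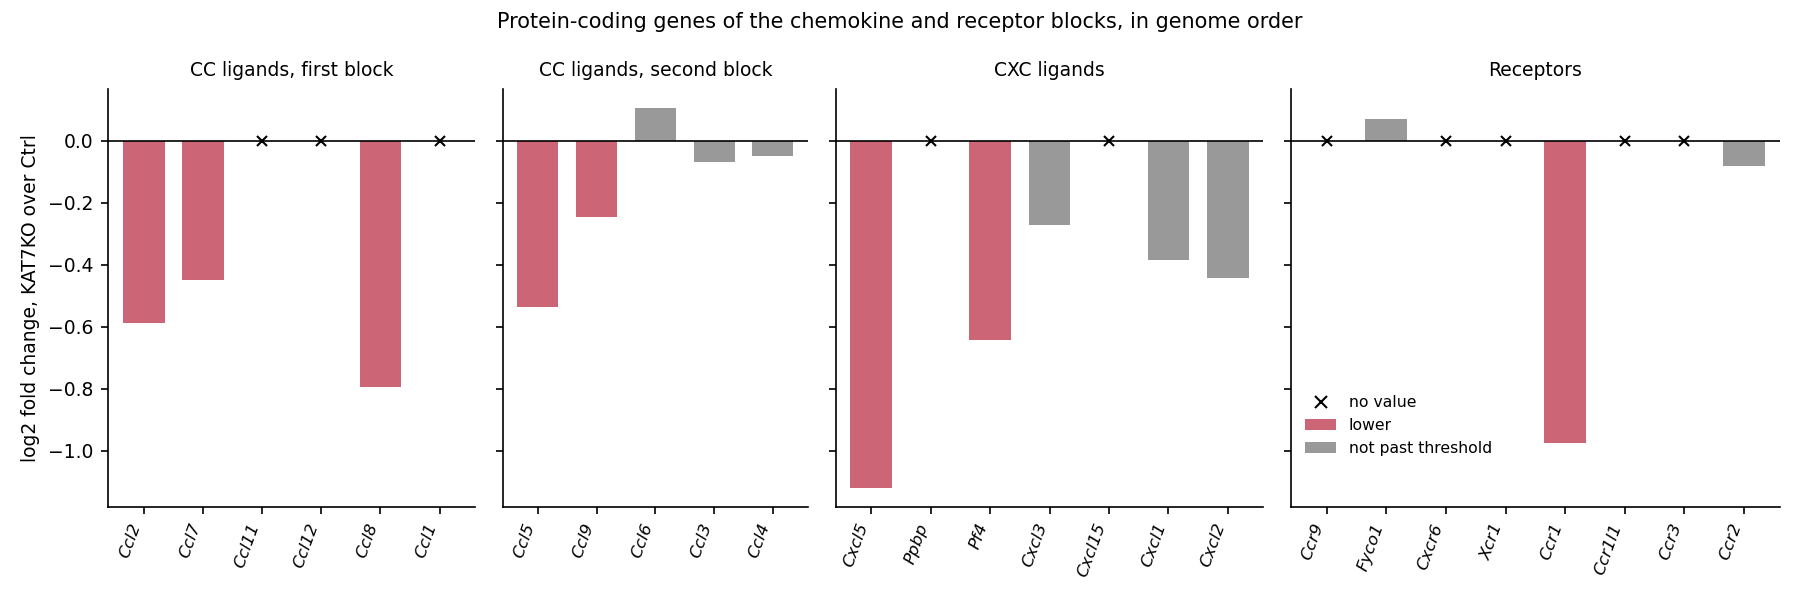
Log2 fold change, KAT7KO over Ctrl, of the protein-coding genes in 3 ligand blocks and the receptor block, in the order of the RefSeq annotation of GRCm38.p6; distances are not drawn. Crosses mark genes with no tested value; the tested genes of the first CC block are all lower, and Ccr2 stands near 0 in the block that holds Ccr1.

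Neighbouring genes did not all move together. In the RefSeq order the block that starts with Ccl2 runs through Ccl7, Ccl11, Ccl12 and Ccl8 to Ccl1, and the 3 of these 6 with enough counts, Ccl2, Ccl7 and Ccl8, were all lower. The next block on the same chromosome runs from Ccl5 through Ccl9, Ccl6 and Ccl3 to Ccl4. There Ccl5 and Ccl9 were lower and the other 3 did not pass. Among CXC ligands, Cxcl5 lies next to Ppbp and Pf4. Pf4, platelet factor 4, is a chemokine (CXCL4) whose symbol the selection does not match. It stood at 49.2, 59.4 and 67.5 CPM in Ctrl and at 35.9, 39.1 and 37.9 CPM in KAT7KO (log2 fold change -0.64, SE 0.10, edgeR adjusted p = 0.000354), with no overlap. Its mean of 81.7 FPKM in Ctrl and 51.8 FPKM in KAT7KO was above that of Ccl5 and of Cxcl16. In the receptor block, drawn from Ccr9 to Ccr2, Ccr1 was lower, while Ccr2 had a log2 fold change of -0.08. Ccrl2, a chemerin-binding relative of the receptors, stood at 135 CPM in both genotypes (log2 fold change 0.0027, SE 0.05).

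Genes that act after the receptors gave calls in both directions. Of 18 genes of G proteins, arrestins, receptor kinases and RGS proteins, all tested, 4 fell (22.2%) and 2 rose (11.1%), where 13.2% of all genes tested were lower and 10.7% higher. Arrb1 (beta-arrestin 1, which uncouples and internalizes receptors) had a log2 fold change of -0.40, Rgs10 of 0.37, Rgs1 of -0.23 and Rgs18 of -0.45, the RGS proteins being brakes on G protein signalling. Gnai2, the main inhibitory G protein of leukocytes, did not pass (log2 fold change 0.07). Of 18 migration effectors 3 fell and 2 rose, 27.8% in all, which is near the 23.9% of all genes tested. Ptk2b, a kinase activated by chemokine receptors, changed by -0.31, the GTPase Rac2 by -0.30, and the exchange factor Arhgef6 by 0.29 and the kinase Lyn by 0.16, all on the log2 scale. The median log2 fold changes of these lists were 0.04 and 0.0069, beside 0.0023 over all genes tested.

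Among 10 genes of peptidases and sheddases that trim or release chemokines, 4 fell (40%) and 1 rose (10%), beside 13.2% lower and 10.7% higher over all genes tested. Mmp9, which cleaves several CXC ligands, had a log2 fold change of -1.95, Mmp12 of -0.47, Anpep (CD13, an aminopeptidase) of -0.39, and the dipeptidase gene Ctsc of 0.28. Adam10 and Adam17, the sheddases that release Cxcl16 and Cx3cl1 from the membrane, did not pass (log2 fold changes of 0.04 and 0.10).

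Of the 49 members, 19 were not tested. Their totals ran from 2 to 41 counts over the 6 libraries, with no library above 16 counts and no genotype mean above 0.616 FPKM, and 11 of them had at least 10 counts. Just above that minimum were Cxcl9 with 12 and Ackr1 with 13 counts, and just below it were Ackr4 with 9 and Ccr1l1 with 5. Ccl20 and Ccl21b, the latter from a group of near-identical copies, were at 0 counts in all libraries of 1 genotype and at 2 and 3 counts in total, so no fold is given. Markers of other cell types were counted in the same way. The neutrophil list had 5 of 8 genes in the table and 1 tested, S100a8, which rose by 0.86 on the log2 scale. Its summed level was 6.14 to 6.51 CPM in Ctrl and 10.6 to 11.98 CPM in KAT7KO, while Mpo had 4 counts over all libraries. For T and NK cells 1 of 8 was tested and 0 passed. For dendritic cells 3 were tested and Itgax and Fscn1 fell (66.7%, where 13.2% of all genes tested were lower). The summed level was 271 to 325 CPM in Ctrl and 235 to 248 CPM in KAT7KO, mostly Itgax (means 212 and 184 CPM). Untested genes of that list had few counts. Clec9a had 0, 2 and 1 counts in Ctrl and 4, 5 and 3 in KAT7KO, and Flt3 0, 1 and 1 and 1, 4 and 1. Cd209a had 3, 2 and 1 counts in Ctrl and 0, 3 and 1 in KAT7KO. For endothelium 1 was tested, Kdr, and fell (log2 fold change -0.49), while untested genes of that list went both ways. Cdh5 had 5, 5 and 3 counts in Ctrl and 12, 15 and 6 in KAT7KO. Egfl7 had 7, 15 and 5 counts in Ctrl and 6, 2 and 5 in KAT7KO. Of the erythroid and megakaryocyte markers 0 could be tested.

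**Figure D5:**
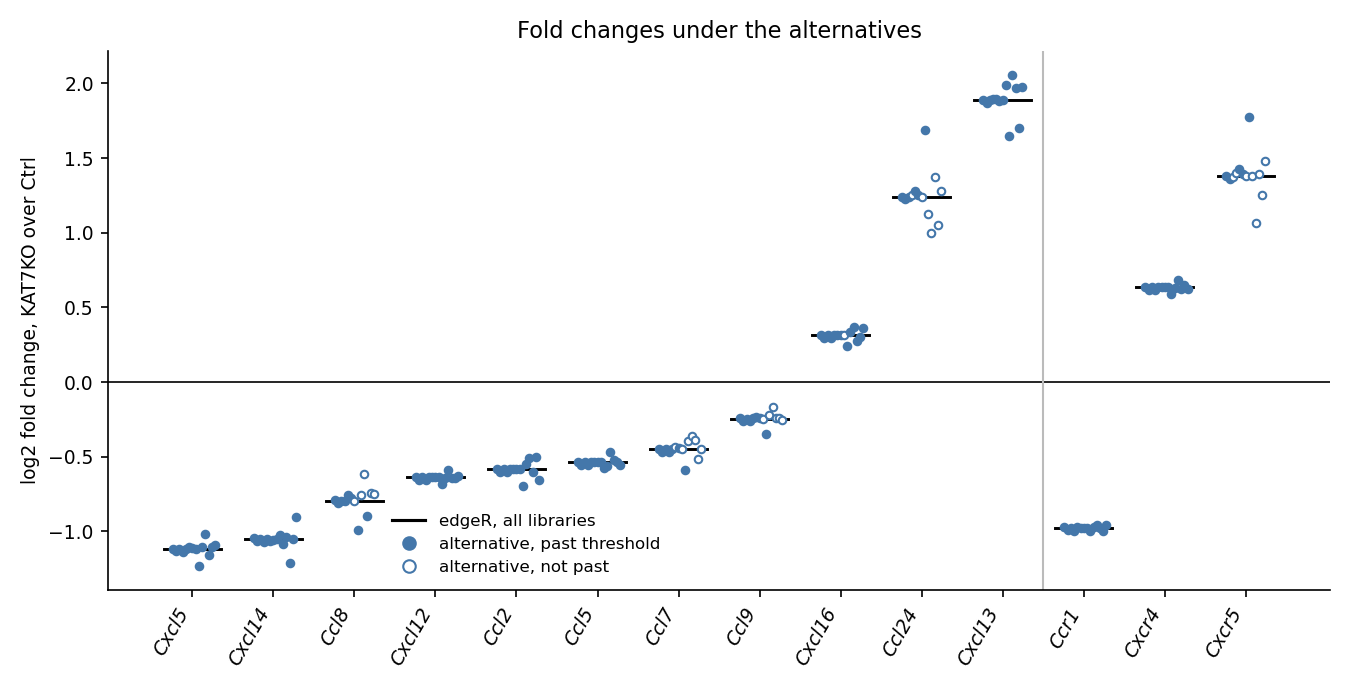
Log2 fold change, KAT7KO over Ctrl, of the members past the threshold that are reported by name (y axis) with edgeR on all libraries (black line) and under the alternatives (points). Filled points passed an adjusted p of 0.05 and open points did not; no point crosses 0, and open points occur for Ccl7, Ccl8, Ccl9, Cxcl16, Ccl24 and Cxcr5.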

How the data were processed

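The data were 1 table of bulk RNA sequencing of 3 Ctrl and 3 KAT7KO libraries, grouped by their titles. The authors deposited raw counts for each gene. Per the file headers its further level columns are the authors' FPKM. The log2 fold change and the p-value columns of the authors' deposited table were used only where named. The submitters' processing notes name FastQC, fastp, HISAT2, featureCounts, DESeq2 and build GRCm39 but no versions. The sources used here do not give strand settings or the treatment of reads matching several genes, so close copies and antisense neighbours may share reads.

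From the counts, genes passing filterByExpr (about 0.496 CPM in 3 libraries) were given TMM factors. The test was robust glmQLFit and glmQLFTest of edgeR 4.0.16 (R 4.3.3) with genotype as the only term, and p-values were adjusted by Benjamini-Hochberg over 12483 genes. SE is the log2 fold change divided by the square root of F. Alternatives also used limma 3.58.1 and DESeq2 1.42.0. The edgeR, DESeq2 and limma-voom fits were tested on simulated data with the main filter, and the other alternatives were not. There edgeR and limma-voom used TMM factors and DESeq2 its own size factors. Members and lists were chosen with earlier results of these data known. Values are given for each member past the threshold and for others among the 12 of highest FPKM, and up to 4 genes of each pathway list in order of p. Others named were chosen after their values were seen. Replicate pairs of a genotype differed beyond sampling noise (mean chi-square per gene 2.68 to 20.2, the highest between Ctrl replicates 1 and 3), so none was counted as a repeat. One item that the counts include is not reported here. Counting limits cover counting error only.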

Additional observations from a re-analysis of the deposited data

How the results depend on the processing

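No called member changed sign under any of the 14 alternatives. Of the 15, 9 kept their call wherever tested. Scaling by upper-quartile factors, or by DESeq2's size factors, left the 15 calls as they were. The number of receptors called higher went from 2 to 1 with no filter on low counts, with a filter of 5 CPM and with DESeq2, each time by losing Cxcr5. The filter of 5 CPM in 3 libraries left 1 ligand higher, since Cxcl13 and Ccl24 were no longer tested. Asking for a change over 1.2-fold left 5 ligands lower, 1 ligand higher and 1 receptor higher. Leaving out 1 library at a time gave 5 to 9 ligands lower, 2 to 3 ligands higher, 2 to 3 receptors lower and 1 to 2 receptors higher. The count of ligands lower was 5 without Ctrl replicate 2, KAT7KO replicate 2 or KAT7KO replicate 3, and these fits have fewer libraries. Among uncalled members Ccl6 ran from -0.0084 (without Ctrl replicate 1) to 0.20 (without Ctrl replicate 3), and Ccl4 from -0.12 (without KAT7KO replicate 3) to 0.050 (without Ctrl replicate 3). Over all genes, 2987 passed, 840 did for a change over 1.2-fold, and 1734 to 3528 did with 1 library left out. With the replicate number as a block 9 ligands were lower, Cxcl10 being added, and no other member's call changed. The numbers do not pair the libraries: deviations of same-numbered libraries correlated at 0.0145, 0.00163 and 0.00311 over genes, and not every library correlated best with its own number. Depth limits the members under about 0.5 CPM. The 15 tested members that did not pass had 95% intervals of plus or minus 0.18 to 0.68 on the log2 scale.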
